A study of Mus musculus with 96 samples.

Results

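The myelin genes described here are 9 genes: Mbp, Mobp, Mog, Mag, Cnp, Cldn11, Ugt8a, Mal and Opalin. They were taken by name from the count table, not by their values, and are 9 of its 35486 rows. All 9 passed the filter on low counts in every region. The table holds 96 bulk mRNA libraries from the brains of 38 male C57BL/6J mice. In experiment 1, the cerebellum, cortex and hippocampus of each of 29 mice were profiled: 4 naive mice labelled 2 months old, 3 naive mice of 18 months, 4 mice of 18 months given PBS and 5 given young plasma over 7 days, 3 mice of 22 months given PBS and 3 given plasma, and, in the long scheme of 24 days, 4 mice of 19 months given PBS and 3 given plasma. In experiment 2, only the hippocampus was profiled, in 4 PBS and 5 plasma mice of 18 months. The series description gives the youngest age as 3 months, where the sample labels say 2. No mouse carried a transgene or deletion according to the labels, and nothing in them says how much white matter each piece of tissue held.

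Myelin is the stack of membrane that oligodendrocytes wrap around axons in the central nervous system. Its compact layers are held together by proteins such as Mbp and Mobp, its inner and outer loops carry Mag, Mog and Cnp, Cldn11 seals the layers with tight junctions, and Ugt8a makes the galactolipid that myelin is rich in. White matter tracts hold many more oligodendrocytes than grey matter, so in a dissected region the level of these RNAs follows how much tract was taken as well as what each cell makes. The factors Sox10 and Myrf drive the myelin genes as precursors mature, and the precursor pool and new oligodendrocytes become scarcer with age.

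RefSeq promoter windows on GRCm38.p6 were at hand for 8 of the 9 genes, and 4 of them are shown: those of Cnp, Mog and Cldn11, which fell with age in the cerebellum, and that of Mobp, which was not called. Capitals mark matches on either strand to ACAAAG, the core letters bound by SOX proteins, or to CTGGNAC, which covers the motif known for Myrf. Each stretch runs 5′ to 3′ along its gene, from 250 to 51 bases before the RefSeq start.
Mobp, chr9:120149492-120149691, plus strand: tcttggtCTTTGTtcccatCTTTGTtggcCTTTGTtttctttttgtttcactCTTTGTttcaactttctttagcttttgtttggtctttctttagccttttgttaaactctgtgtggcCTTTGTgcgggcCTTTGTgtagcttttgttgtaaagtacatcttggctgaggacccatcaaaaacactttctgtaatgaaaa
Cnp, chr11:100574689-100574888, plus strand: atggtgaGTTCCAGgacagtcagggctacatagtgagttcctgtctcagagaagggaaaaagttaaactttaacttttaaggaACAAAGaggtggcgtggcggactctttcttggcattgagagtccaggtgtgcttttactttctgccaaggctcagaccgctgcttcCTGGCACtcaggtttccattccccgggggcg
Mog, chr17:37023449-37023648, minus strand: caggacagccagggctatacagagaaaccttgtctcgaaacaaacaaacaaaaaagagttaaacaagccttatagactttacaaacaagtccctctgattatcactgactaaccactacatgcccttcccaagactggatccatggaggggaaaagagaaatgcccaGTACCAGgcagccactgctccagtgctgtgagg
Cldn11, chr3:31149670-31149869, plus strand: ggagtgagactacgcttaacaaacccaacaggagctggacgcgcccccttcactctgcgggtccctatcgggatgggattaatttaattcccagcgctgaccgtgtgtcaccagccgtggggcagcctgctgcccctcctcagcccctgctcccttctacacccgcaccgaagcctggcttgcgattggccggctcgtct
The stretch before Mobp held 6 copies of the SOX letters, that before Cnp held 1 copy and 2 copies of the Myrf letters, that before Mog held 1 copy of the Myrf letters, and that before Cldn11 held neither. Over the full 250 bases, 4 of the 8 genes (Cnp, Mag, Mobp and Opalin) held ACAAAG, against 16.5% of 32851 RefSeq promoters, and 3 (Cnp, Mag and Mog) held CTGGNAC, against 16.1%. Of other letters searched, GGGCGG was held by 2 (Cnp and Ugt8a), against 32.7%. CAGCTG and TATAAA were held by 0, against 13% and 12.4%. Mag had more than 1 window and was counted by the first listed, while another of its windows held neither ACAAAG nor CTGGNAC. All of these are matches of letters and not measured binding sites.

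The libraries held 851288 to 23768385 counts (median 8889509), and 7 libraries lay under 2500000. In 8 libraries, 6 of the hippocampus and 2 of the cortex, the neuron markers of the labelled region lay more than 3 median absolute deviations below that region's median. Among these were hippocampal replicates 14 and 20 of the naive 2-month group. Replicate 14 had a summed level of 284 CPM (counts per 1000000 counts of the library) over 10 hippocampal neuron markers, where the median of its group was 1144 CPM and the naive 18-month libraries ran from 1089 to 1201 CPM. For the hippocampal age change in naive mice, the median estimate is given with and without the libraries of low markers. Other estimates are not given without them.

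In GENCODE M21 on GRCm38, Mbp lies at chr18:82475146-82585637, Mobp at chr9:120149707-120181484 and Cnp at chr11:100574904-100591729, all on the plus strand. Mog lies at chr17:37010743-37023398, Mag at chr7:30899176-30914873, Mal at chr2:127633226-127656695 and Opalin at chr19:41061710-41077113, all on the minus strand. Cldn11, at chr3:31149920-31164324 on the plus strand, and Ugt8a, at chr3:125865271-125938619 on the minus strand, share a chromosome. The libraries do not mark strand, and the exons of Cnp overlap those of Dnajc7 on the other strand by 154 bases, 4.23% of its exon length, and those of Mobp overlap Gm38642 by 79 bases, so reads from these stretches cannot be told apart.

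Mbp was the most abundant of the 9 genes in all 3 regions of experiment 1. Per kilobase of annotated exon, its mean level was 340 ± 30.01 CPM for cerebellum, 321 ± 80.1 for cortex and 343 ± 83.8 for hippocampus (SD, n = 29 libraries each). Cnp, an enzyme of the cytoplasmic channels of myelin, followed in the cerebellum at 148 CPM per kilobase, ahead of Mobp at 90.7. In the cortex Cnp and Mobp, at 109 and 101 CPM per kilobase, did not differ beyond their spread. Cldn11 came next at 60.8, 69.3 and 80.8 CPM per kilobase in cerebellum, cortex and hippocampus. Mal, a lipid raft protein of compact myelin, and Mag, an adhesion protein facing the axon, stood at 39.0 and 41.7 in the cerebellum, within each other's spread, and at 50.4 and 36.0 in the cortex. Mog, on the outermost layer, reached 28.1 to 31.1 over the 3 regions, and Ugt8a 11.7 to 14.9. Opalin, an oligodendrocyte membrane glycoprotein, was the lowest, at 3.86 CPM per kilobase for cerebellum, 7.55 for cortex and 8.67 for hippocampus. These levels use the total exon length of each gene in GENCODE M21, which may not be the length that was counted.

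**Figure D1:**
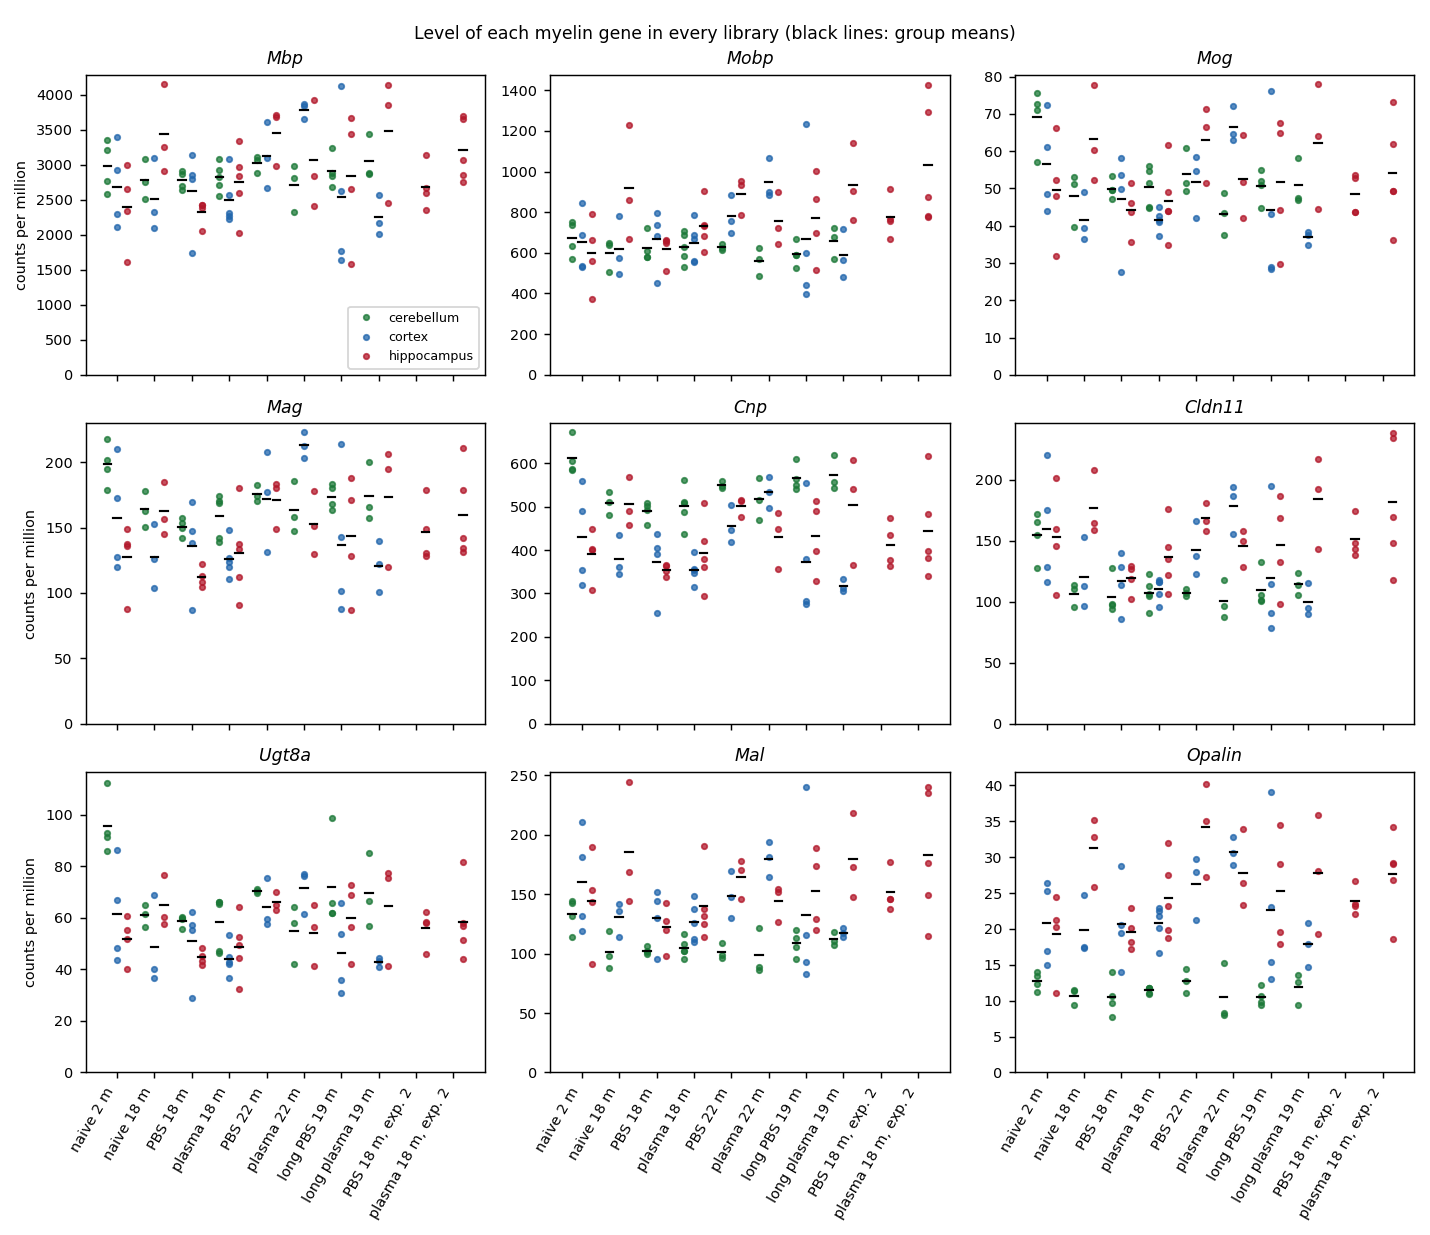
CPM of each of the 9 myelin genes in every library (points), by group on the horizontal axis and by region in colour, with black lines at the group means. The cerebellar points lie close together, with Mbp between 2321 and 3441 CPM, while the cortical ones spread from 1642 to 4121 CPM.

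Regions differed in which myelin genes they held more of. In the test between regions over 29 mice, 6 of the 9 genes differed between cerebellum and cortex, 2 between hippocampus and cortex and 7 between cerebellum and hippocampus, where 83.3%, 60.3% and 84.1% of all 19490 genes tested did so, so these counts do not set the myelin genes apart. Opalin showed the widest gap: its CPM ran from 7.70 through a median of 11.3 to 15.3 in the cerebellum and from 13.0 through 21.2 to 39.1 in the cortex. The 2 ranges overlapped little, and Opalin was lower in the cerebellum by a log2 difference of -1.08 ± 0.09 (SE, edgeR adjusted p = 1.18e-17). Against the hippocampus the difference was -1.31 ± 0.09 (edgeR adjusted p = 5.04e-22). Mal was also lower in the cerebellum, by -0.54 ± 0.07 against the cortex and -0.66 ± 0.07 against the hippocampus, and so were Cldn11, by -0.37 ± 0.07 and -0.60 ± 0.07, and Mobp, by -0.32 ± 0.08 and -0.47 ± 0.08. Cnp went the other way and was higher in the cerebellum, by 0.27 ± 0.06 against the cortex and 0.15 ± 0.06 against the hippocampus. Ugt8a was higher in the cerebellum than in the cortex by 0.18 ± 0.08 (edgeR adjusted p = 0.0288), but DESeq2 and relative log expression factors, which set the library scale in another way, did not call it. The size of a difference also depends on that scale. On library totals, cerebellum and cortex had means of 621 and 690 CPM for Mobp, 114 and 130 for Cldn11 and 539 and 398 for Cnp. Mbp, called lower against the hippocampus, had means of 2878 and 2908 CPM. It was not called with upper quartile factors. In naive 2-month mice alone, Opalin was still lower in the cerebellum than in the cortex and the hippocampus, and Cnp still higher. Against the cortex, Ugt8a and Mal were also called in these mice, but Mobp and Cldn11 were not, at -0.10 and -0.20 (edgeR adjusted p = 0.7 and 0.343). Against the hippocampus, Cldn11 and Mal were not called, at -0.15 and -0.30 (edgeR adjusted p = 0.489 and 0.184), and the differences of Mbp, Mobp and Mog changed sign and were not called. The 2 calls between hippocampus and cortex over all 29 mice, Cldn11 at 0.23 ± 0.07 and Opalin at 0.23 ± 0.08, were also lost there and changed sign. In these mice 59.2% of all genes were called for the cerebellum against the cortex, again 59.2% against the hippocampus, and 12.5% for the hippocampus against the cortex. The hippocampus of those mice includes the 2 libraries with low hippocampal markers.

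With age, 5 of the 9 myelin genes fell in the cerebellum of naive mice, and none rose. The call was an edgeR adjusted p under 0.05 over 17185 genes, of which 1.06% were called lower and 2.39% in either direction. The 5 were Ugt8a, Cldn11, Mog, Mal and Cnp, and all 9 estimates were below 0, with a median log2 change of -0.30 against 0.01 over all genes tested.

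Ugt8a, the galactolipid enzyme, was counted at 85.8, 91.2, 92.9 and 112 CPM in the cerebellum of the 2-month mice and at 56.6, 61.4 and 65.1 CPM at 18 months. All 3 older values lay below all 4 younger ones, a 1.59-fold lower level (log2 -0.66 ± 0.13, edgeR adjusted p = 0.00261). Cldn11, the tight junction protein, stood at 127, 155, 165 and 172 CPM at 2 months and at 95.3, 110 and 114 CPM at 18 months. It was 1.47-fold lower, again without overlap (log2 -0.56 ± 0.10, edgeR adjusted p = 0.00135). Mog had 57.1, 71.1, 72.6 and 75.6 CPM at 2 months and 39.7, 51.3 and 53.0 CPM at 18 months, and was 1.45-fold lower (log2 -0.53 ± 0.11, edgeR adjusted p = 0.00319). Cnp, at 585, 586, 606 and 671 CPM against 480, 511 and 533 CPM, was 1.23-fold lower (log2 -0.30 ± 0.07, edgeR adjusted p = 0.0146). Mal, at 114, 131, 143 and 144 CPM against 87.5, 98.1 and 119 CPM, overlapped by 1 library and was 1.32-fold lower (log2 -0.40 ± 0.10, edgeR adjusted p = 0.0231). Mag missed the threshold, with a log2 difference of -0.30 ± 0.09 (edgeR adjusted p = 0.056), although its 2 groups did not overlap either. The groups failed to overlap in this direction for 5 of the 9 genes and for 5.05% of all genes. The 9 genes share these libraries and are not separate observations. Without naive 18-month replicate 9, or without naive 2-month replicate 20, the calls came down to 3, namely Mog, Cldn11 and Ugt8a.

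Mbp, Mobp and Opalin were not called in the cerebellum. Mbp was counted at 2583, 2775, 3214 and 3360 CPM in the cerebellum at 2 months and at 2508, 2747 and 3075 CPM at 18 months. The groups overlapped, and the log2 difference was -0.13 with a 95% interval from -0.31 to 0.05. Mobp gave -0.19, with an interval from -0.41 to 0.03, and Opalin -0.26, with an interval from -0.66 to 0.13.

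In bulk tissue, fewer oligodendrocytes and less RNA per oligodendrocyte cannot be told apart. Other values moved with age in the same cerebellar libraries. The summed level of 10 choroid plexus markers ran from 160 to 1927 CPM at 2 months and from 1777 to 2384 CPM at 18 months, and with that score as a covariate 4 of the 5 calls stood, without Mal, where 0.57% of all genes were called lower. The 10 cerebellar neuron markers summed to 4329 to 5238 CPM at 2 months and 4148 to 4493 CPM at 18 months. The 10 brainstem markers summed to 19.2 to 38.7 CPM and 21.5 to 24.9 CPM, with 5 of the genes at 0 in every library of each group, Hoxb4, Hoxa4 and Hoxb2 in both. Most of that sum was Slc6a5, a glycine transporter that cerebellar neurons also make, with a mean of 21.4 CPM over the 29 cerebellar libraries, and no gene of the list marks white matter tracts. Of 8 microglia markers, 6 rose in these libraries, where 1.33% of all genes were called higher, led by the complement genes C1qb at log2 1.02 ± 0.12, C1qa at 1.29 ± 0.17 and C1qc at 1.24 ± 0.16. Their part in the myelin result was not tested.

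**Figure D2:**
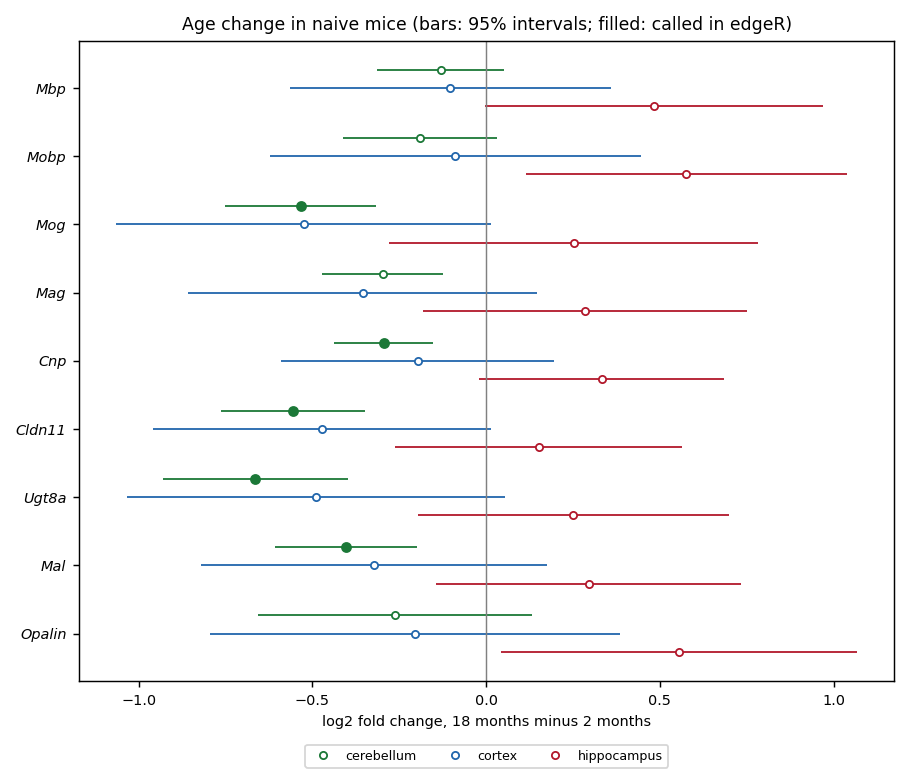
Log2 fold change of each myelin gene from 2 to 18 months in naive mice, with 95% intervals, by region; filled points passed the edgeR threshold. The 5 filled points are cerebellar and lie between -0.66 and -0.30, while the hippocampal points all lie above 0.

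In the cortex and the hippocampus no myelin gene was called between 2 and 18 months, where 0.112% and 0.0719% of all genes were; at an unadjusted p under 0.05, edgeR gave 0 of 9 in the cortex (6.18% of all genes) and 2 of 9 in the hippocampus (6.39%), and DESeq2 and limma-voom called none in either. The cortical estimates were all below 0, from -0.52 for Mog to -0.09 for Mobp, and the hippocampal ones all above 0, from 0.15 for Cldn11 to 0.58 for Mobp. Cortical Cldn11 stood at 116, 129, 175 and 220 CPM at 2 months and at 96.2, 113 and 153 CPM at 18 months. The 2 groups overlapped widely, and the difference of -0.47 had an interval from -0.96 to 0.01. Hippocampal Mbp stood at 1615, 2338, 2651 and 2994 CPM at 2 months and at 2909, 3256 and 4160 CPM at 18 months, a difference of 0.48 with an interval from -0.0019 to 0.97. The groups overlapped by 1 young library. The lowest value, 1615 CPM, belonged to replicate 20, 1 of the 2 libraries with low hippocampal markers. Without the libraries of low markers, the median hippocampal estimate came down from 0.30 to 0.15. The groups did not overlap for Cnp and Opalin, which were higher at 18 months, as 4.52% of all genes were. The difference of the age change between regions was tested directly. Between hippocampus and cerebellum it ran from 0.57 for Mag to 0.91 for Ugt8a, with unadjusted p under 0.05 for 8 of 9 genes (8.65% of all genes), and between hippocampus and cortex from 0.53 to 0.76, for 9 of 9 (4.56% of all genes). None passed the adjustment in edgeR, DESeq2 or limma-voom, where 0.0513% and 0% of all genes did in edgeR. Because the 9 genes rise and fall together between libraries, 8 of 9 or 9 of 9 are not that many separate observations. Between cerebellum and cortex the differences ran from -0.18 to 0.06 and none was called (0.041% of all genes), with 0 of 9 at an unadjusted p under 0.05 in edgeR (5.24% of all genes), so the fall called in the cerebellum was not shown to differ from that in the cortex.

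Each gene was also read against Mbp, whose cerebellar level was not called with age. A ratio to Mbp falls when Mbp rises as well as when the gene falls. This reading, and the pooling of all 25 older mice of experiment 1, were chosen after these data had been seen. Cldn11 had 49.1, 49.3, 53.6 and 55.8 counts per 1000 Mbp counts in the cerebellum of the 2-month mice, and ran from 34.2 through a median of 37.0 to 43.6 in the 25 older mice. No older cerebellum reached the lowest young value. In the cortex the young values were 55.0, 56.1, 59.6 and 64.8, and the older ones ran from 37.7 through 46.0 to 53.1, again without overlap. In the hippocampus the young values of 60.3, 62.3, 65.1 and 67.2 lay above all but the highest of the older ones, which ran from 40.3 through 50.8 to 61.7. The 9 hippocampi of 18 months from experiment 2, which are not among these 25 mice, ran from 41.1 through 55.6 to 65.2 and overlapped the young values. Of the 8 genes read against Mbp, 2 (Cldn11 and Mog) had no overlap in the cerebellum of experiment 1, 1 (Cldn11) in the cortex and none in the hippocampus, against 0.0931%, 0.0266% and 0.0166% of all genes.

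Mog had 22.1 to 25.6 counts per 1000 Mbp counts in the young cerebellum and 13.8 to 20.5 in the older one. Its young cortical values, 19.1 to 23.0, overlapped the older 13.8 to 20.4. Ugt8a averaged 32.2 ± 2.80 (SD, n = 4) in the young cerebellum and 22.0 ± 2.64 (SD, n = 25) in the older one. In the cortex its means were 22.5 and 18.9, and in the hippocampus 22.1 and 19.0. The young ratios of Mobp and Opalin lay within the older range in all 3 regions of experiment 1. Per 1000 Mbp counts, Mobp averaged 225 in the young cerebellum and 214 in the older one, 243 and 255 in the cortex, and 246 and 266 in the hippocampus. For Opalin the young and older medians were 4.27 and 3.86 in the cerebellum, 7.56 and 8.24 in the cortex, and 8.10 and 8.89 in the hippocampus.

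**Figure D3:**
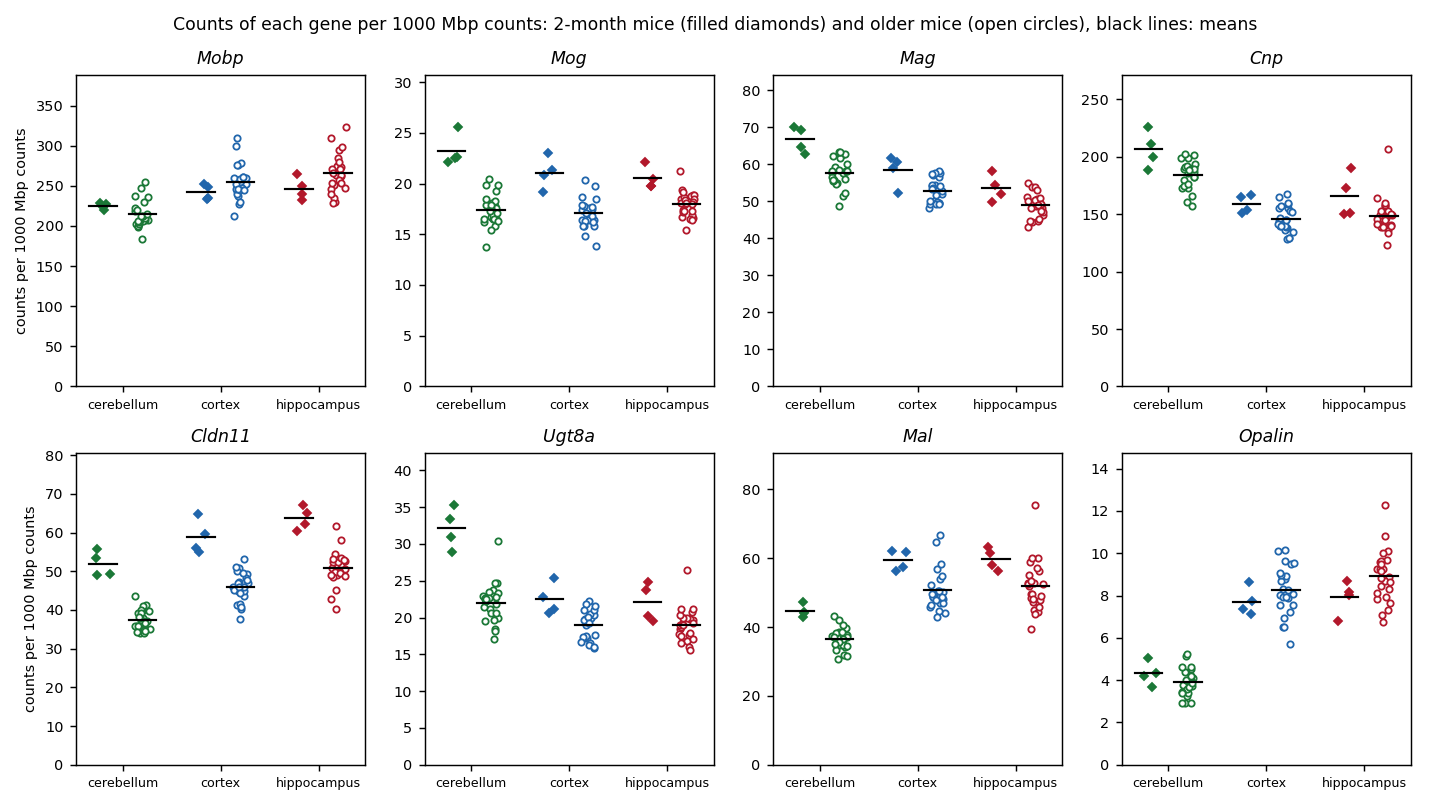
Counts of each gene per 1000 Mbp counts in the libraries of experiment 1, by region, with the 2-month mice as filled diamonds, the 25 older mice as open circles and means as black lines. The Cldn11 diamonds lie above every circle in cerebellum and cortex, while those of Mobp and Opalin lie among the circles.

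Without any covariate, edgeR called 6 of the 9 genes lower in the 25 older mice in the cerebellum (4.89% of all genes) and none in the cortex (1.42%) or the hippocampus (0.465%). With log2 CPM of Mbp as a covariate and all older groups against the 2-month group, edgeR called 6 of 8 genes lower in the cerebellum, 3 in the cortex (Cldn11, Mog and Ugt8a) and 1 in the hippocampus (Cldn11), against 4.99%, 2.08% and 0.454% of all genes called lower. In naive mice alone, this covariate gave 5 in the cerebellum and none in cortex or hippocampus, against 1.06%, 0.0426% and 0.0111%. Cldn11 gave a log2 difference of -0.53 ± 0.05 in the cerebellum (edgeR adjusted p = 1.37e-08). It gave -0.37 ± 0.06 in the cortex (edgeR adjusted p = 0.000486) and -0.29 ± 0.06 in the hippocampus (edgeR adjusted p = 0.0169). Without the covariate, the hippocampal estimates of the 9 genes for the older groups ran from -0.055 to 0.38. The lower Cldn11 in the hippocampus is therefore relative to Mbp. With 16 other oligodendrocyte genes, which are not myelin genes, as the covariate, 6, 7 and 2 of the 9 genes were lower, against 4.97%, 1.27% and 0.238% of all genes. Adding it moved the median estimate of the 9 genes from -0.15 to -0.36 in the cortex and from 0.15 to -0.25 in the hippocampus. In the cerebellum that median went from -0.29 to -0.26. Whether the score of these 16 genes itself changed with age was not tested. In the naive mice alone the same covariate gave 6 in the cerebellum, 3 in the cortex (Mog, Mag and Cldn11) and 0 in the hippocampus, against 1.11%, 0.0693% and 0.00553% of all genes. The result depended on the fit: with each library's Mbp count in place of its size, the older groups gave 4 calls in the cerebellum and none in the cortex or hippocampus, where 0.669%, 0.0746% and 0.288% of all genes were called lower, and the naive mice alone 3, 0 and 0 (0.116%, 0.00533% and 0%); this scale moved the median log2 change of all genes to 0.08, 0.02 and -0.29 for the older groups and to 0.12, 0.14 and -0.49 for the naive mice. On the scale of the Mbp count too, genes that do not vary with Mbp hold its spread, so these shares are not an even baseline. Compared between regions with the Mbp covariate, the change of Ugt8a was called, 0.41 ± 0.11 higher in the hippocampus than in the cerebellum (edgeR adjusted p = 0.0473), and no other gene was called in any pair of regions (1.4% of all genes called between cerebellum and cortex, 0.41% between hippocampus and cortex and 0.811% between hippocampus and cerebellum). That call was lost with the other oligodendrocyte genes as the covariate (1.07%, 0.0308% and 0.57% for the same pairs) and with the Mbp count as library size (0.0616%, 0.118% and 0.318%). In these libraries, age cannot be told apart from the number that the sample titles carry, whose meaning the labels do not give.

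The other genes of the oligodendrocyte lineage were read in the same naive comparison. In the cerebellum, where 1.06% of all genes were called lower and 1.33% higher, 1 of 15 further myelin proteins fell and none rose: Tspan2, a tetraspanin, at log2 -0.37 ± 0.08 (edgeR adjusted p = 0.00771). Of 13 genes for myelin lipids and cholesterol, 2 fell in the cerebellum: Fa2h, which hydroxylates the fatty acids of galactolipids, at -0.49 ± 0.11, and Hmgcs1, an early enzyme of cholesterol synthesis, at -0.33 ± 0.09. In the hippocampus Tspan2, Fa2h and Hmgcs1 were not called, at 0.08, 0.35 and 0.08, nor in the cortex, at -0.53, -0.48 and 0.01. Among the 16 other oligodendrocyte genes none was called lower in the cerebellum, and Apod, a lipid carrier, was called higher, by 0.45 ± 0.10 (edgeR adjusted p = 0.00931). A gene that was not called is not shown to be unchanged. None of 9 lineage transcription factors was called there, with Sox10 at -0.20 ± 0.12 and Myrf at -0.14 ± 0.12. Gpr17, a receptor of newly formed oligodendrocytes, fell in all 3 regions, by -1.30 ± 0.21 in cerebellum, -1.27 ± 0.21 in cortex and -0.85 ± 0.12 in hippocampus (edgeR adjusted p = 0.00023, 0.00491 and 0.00202), and was the 1 gene called of 9 tested on its list in each region. None of 10 precursor genes was called in any region. The lists were drawn up with earlier results of these data known, and whether they differ from the 9 genes was not tested.

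Between 18 and 22 months in PBS mice no myelin gene was called in any region (0.157%, 0.00533% and 0% of all genes in cerebellum, cortex and hippocampus), nor between PBS and naive mice at 18 months (0% in each region). In the hippocampus, Mbp had 2058, 2378, 2429 and 2429 CPM in the PBS mice of 18 months and 2979, 3680 and 3712 CPM in those of 22 months. The groups did not overlap, and the log2 difference was 0.61, with an interval from 0.13 to 1.10 and an edgeR adjusted p of 0.558. All 9 genes lay above 0 in that comparison, from 0.47 for Mal to 0.84 for Opalin, with unadjusted p under 0.05 for 9 of 9 (7.85% of all genes). Against the naive 18-month hippocampus the same PBS libraries lay lower for all 9 genes, from -0.66 to -0.51, with unadjusted p under 0.05 for 8 of 9 (3.54% of all genes) and edgeR adjusted p of 1. Both comparisons share the PBS group of 18 months with each other, of which replicates 5 and 11 were low in hippocampal markers. As the 9 genes rise and fall together between libraries, these counts of 9 and 8 genes are not separate observations. When only the compared groups were fitted, Mag, Cnp and Ugt8a were called higher at 22 months, where 0.0941% of 15946 genes were, and Mag and Cnp lower after PBS, where 0.0774% of 15507 genes were. In the cerebellum and cortex at an unadjusted p under 0.05, 2 and 0 of the 9 genes differed between 18 and 22 months (15.2% and 10.9% of all genes) and 0 in each between PBS and naive mice (3.32% and 3.63%), and DESeq2 and limma-voom called none in any of the 6 comparisons.

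No myelin gene was called between young plasma and PBS in any of 10 comparisons. Of 90 tests, edgeR called 0, with 2 at an unadjusted p under 0.05 (4.2% of the tests of all genes), and DESeq2 and limma-voom called 0; no gene of any kind was called by edgeR (0% in each comparison). The comparison of 18-month mice in experiment 1 shares its PBS libraries with the 2 comparisons above. Without plasma replicates 10 and 13 and PBS replicate 11, which share a number in their titles, the 3 comparisons at 18 months in experiment 1 gave 0 calls as well. The 2 lowest p-values came from the hippocampus of experiment 2. There Mbp had 2355, 2597, 2661 and 3139 CPM in PBS mice and 2756, 2858, 3064, 3651 and 3696 CPM in plasma mice. The groups overlapped, and the log2 difference was 0.29 ± 0.10 (edgeR adjusted p = 0.602). Mobp had 666, 756, 768 and 913 CPM against 778, 781, 875, 1292 and 1424 CPM, a difference of 0.44 ± 0.17 (edgeR adjusted p = 0.602). In the hippocampus of experiment 1, Mbp had 2021, 2598, 2842, 2974 and 3338 CPM in plasma mice, a difference of 0.25 from the PBS mice. All 9 hippocampal estimates lay above 0 in both experiments at 18 months, with medians of 0.20 and 0.24. The same held in the long scheme, with a median of 0.26. At 22 months all 9 lay below 0, with a median of -0.24. In the long scheme, plasma replicate 23 and PBS replicate 24 of the hippocampus were low in hippocampal markers. Replicate 23 was highest in its group and replicate 24 lowest, with mean deviations of the 9 genes of 0.31 and -0.52 log2 CPM. The long-scheme estimate without these libraries is not given here. In the cortex the medians were -0.07 at 18 months, 0.28 at 22 months and -0.16 in the long scheme. In the cerebellum they were 0.03, -0.12 and 0.07. Since the 9 genes rise and fall together between libraries, such runs of 1 sign are not 9 separate observations. Over all 90 tests the 95% intervals reached from -0.94 to 0.87, while in the cerebellum at 18 months they stayed within -0.27 and 0.45. No difference of the plasma change between the experiments was called for any of the 9 genes, with values from -0.11 to 0.20 and edgeR adjusted p of 1 for all 9 (0% of all genes called, and 0 of 9 at an unadjusted p under 0.05, against 3.1% of all genes).

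**Figure D4:**
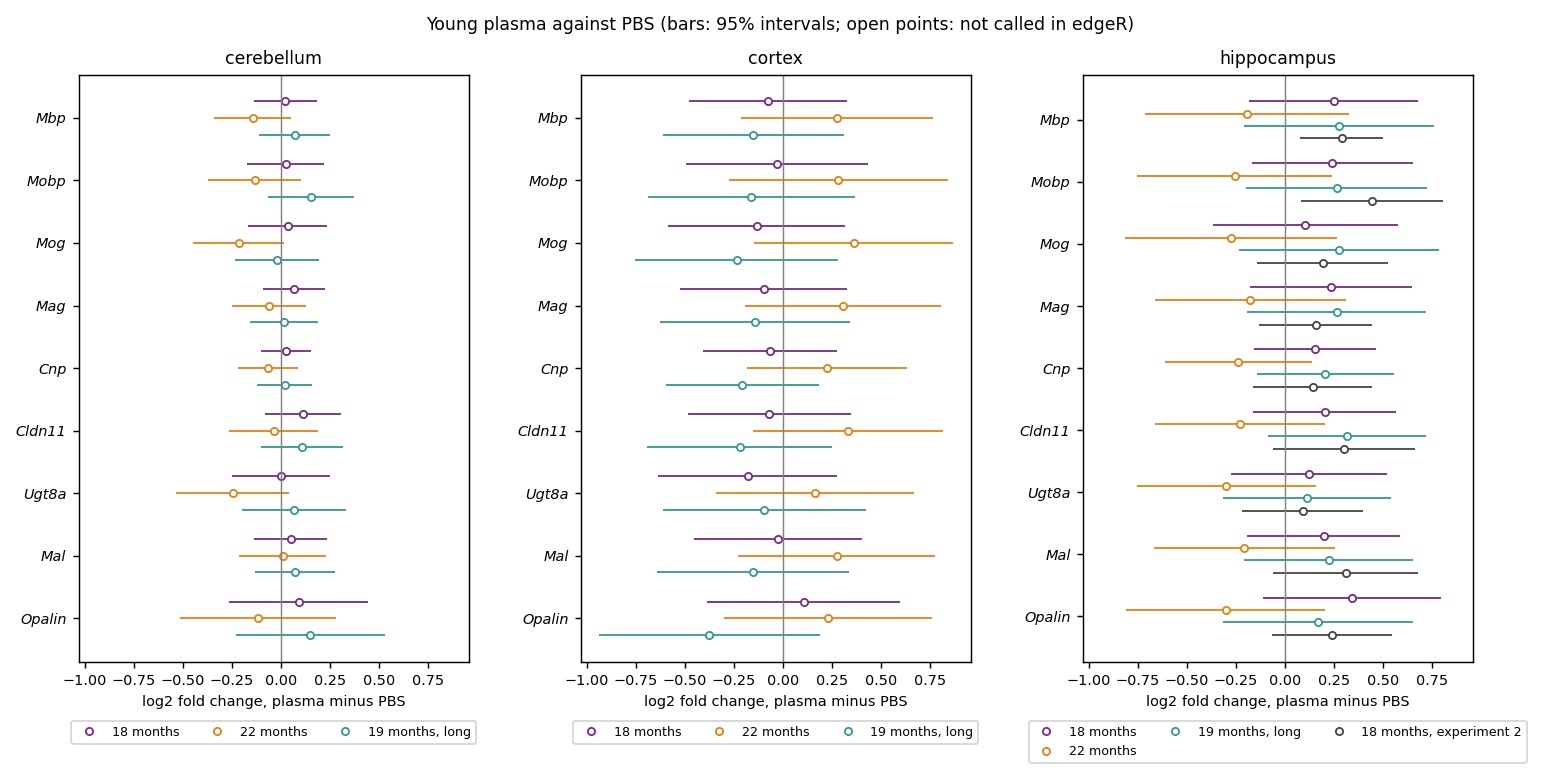
Log2 fold change of each myelin gene, young plasma minus PBS, with 95% intervals, by region and scheme; open points did not pass the edgeR threshold. Every point is open, and the hippocampal points lie above 0 except those at 22 months.

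The myelin genes rose and fell together from library to library within a group. Over the deviations of each library from its group mean, Pearson's r between pairs of the 9 genes had a median of 0.91 in the cortex (29 libraries), 0.88 in the hippocampus (38 libraries) and 0.54 in the cerebellum (29 libraries), with Spearman's rho of 0.89, 0.88 and 0.56. The genes of a pair share their library, its depth and its tissue. The spread within groups was also wider in the forebrain regions: the SD of log2 CPM had a median over the 9 genes of 0.35 in the cortex, 0.31 in the hippocampus and 0.16 in the cerebellum, where the median over all genes was 0.14, 0.16 and 0.14. The mean deviation of the 9 genes followed that of 15 other oligodendrocyte genes, with r = 0.969 in the cortex, 0.938 in the hippocampus and 0.784 in the cerebellum (rho = 0.961, 0.92 and 0.807), and with r = 0.949, 0.933 and 0.805 without the 2 libraries farthest from the median of those genes. With markers of other tissue, r in the cortex was 0.379 for the striatal genes and 0.17 without the 2 farthest libraries. In the hippocampus it was 0.229 for the thalamic, 0.379 for the choroid plexus and -0.313 for the striatal genes (0.223, 0.377 and -0.192 without the 2 farthest libraries). In the cerebellum it was 0.588 for the thalamic genes and -0.68 for the cerebellar neuron markers (0.554 and -0.655 without the 2 farthest libraries). The 10 thalamic genes summed to a median of 688 CPM in the cerebellum, 250 CPM in the cortex and 211 CPM in the hippocampus. In the cerebellum they therefore do not mark thalamic tissue. Between regions of the same mouse, the mean deviations of the 9 genes gave r = -0.299 for cortex and hippocampus, -0.172 for cerebellum and cortex and 0.0688 for cerebellum and hippocampus over 29 mice (rho = -0.254, -0.178 and 0.032). These correlations describe the libraries and were not tested.

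**Figure D5:**
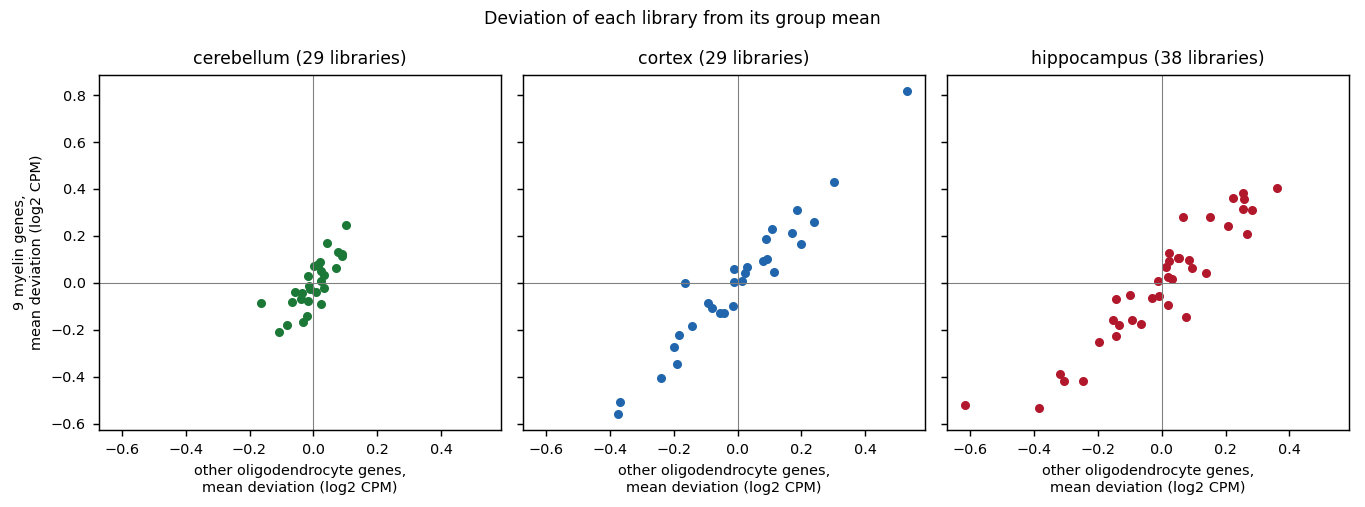
Mean deviation from the group mean of the 9 myelin genes (vertical axis) against that of 15 other oligodendrocyte genes (horizontal axis), both in log2 CPM, with a point for each library, by region. The points lie along a line in cortex and hippocampus and keep to a smaller range in the cerebellum.

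The genes whose deviations were most like the mean of the 9 over 96 libraries, among 11108 others with a mean of at least 10 CPM, included Trf, the iron carrier transferrin, with r = 0.932, Tmem88b with 0.908, Gatm, an enzyme of creatine synthesis, with 0.904, and Ermn, a cytoskeletal protein of oligodendrocytes, with 0.902. Gm20425, with 0.927, overlaps Trf, so its reads may be those of Trf. Trf and Tmem88b are also among the 16 other oligodendrocyte genes. Within the cerebellum alone Trf gave only 0.471, where Ermn gave 0.745.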

How the data were processed

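Smart-Seq2 cDNA from RNeasy-purified RNA was made into Nextera XT libraries with no record of the strand, per the labels' protocols. Reads were processed with Trim Galore 0.3.7 and STAR 2.5.3a on GRCm38, per the submitters' processing notes, which also name DESeq2 without a role; the counting tool and annotation are not given in the sources used here. The authors deposited raw counts per gene symbol, with no normalization, for 96 libraries of 851288 to 23768385 counts; 35047 of 35486 symbols matched the reference names. Within a region each mouse gave 1 library, so intervals and p-values measure the spread between libraries. That spread holds mouse, dissection and preparation together. The main fits over 87 libraries of 29 mice had no mouse term. Low totals limit the precision of the rarer genes.

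Counts were tested in R 4.3.3 with edgeR 4.0.16 (TMM factors, filterByExpr with a minimum count of 10 and a minimum total of 15, quasi-likelihood test, Benjamini-Hochberg adjustment over all genes of a fit, threshold 0.05). Each region was fitted with its 29 libraries of experiment 1, experiment 2 with its 9 libraries, and region differences and their change with age over 87 libraries, where the region differences are means over 8 groups. CPM use library totals, and log2 CPM a prior count of 2. Standard errors came from the quasi-likelihood F. Alternatives were DESeq2 1.42.0, limma 3.58.1 (voom with quality weights), other factors, no filter, the compared groups alone, libraries left out, marker scores as covariates and the mouse as a block.

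The same mouse gave the 3 regions, from the animal number in the labels. Over genes, the median correlation of a mouse's deviations was 0.0806 between the forebrain regions, 0.0498 between cerebellum and cortex and 0.0384 between hippocampus and cerebellum. The labels do not say whether mice shared a cage or a day of dissection. On simulated counts for the naive age comparison, genes changed by log2 0.5 were recovered in 62% of cases in the cerebellum (17003 genes). In the cortex (18542) and the hippocampus (17856) the shares were 50% and 41%. Those changed by 1 were recovered in 96%, 93% and 84%. These shares were not worked out for the myelin genes. Their median SD of log2 CPM within groups was 0.35 in the cortex and 0.31 in the hippocampus. Over all genes it was 0.14 and 0.16. The shares may therefore be too high for the myelin genes of these regions. In the cerebellum the SDs were closer, at 0.16 and 0.14.

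The 9 genes, the gene lists and the alternatives were chosen with earlier results of these data known. Genes were named by rule: all 9 genes, up to 3 called genes of each other list with the lowest adjusted p in a comparison, of which only those that bear on the text are given, and the 6 genes whose deviations correlated best with those of the 9 over all libraries, of which 1 is not reported here. Sox10 and Myrf were named outside that rule, after their values were seen.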

Additional observations from a re-analysis of the deposited data

Results flagged for a closer look

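In groups of 4 or 5 libraries, 6 of 126 combinations of gene and group held a library far from the others by Dixon's test, and chance flags about 1 in 20 groups. In the cerebellum of the long PBS group, replicate 29 had the highest Cldn11, 133 CPM against 105 CPM in the next library, and the highest Ugt8a, 98.7 CPM against 65.7 CPM. That library has 851288 counts. In the cerebellum of the 18-month PBS group, replicate 2, with 1029695 counts, had the highest Cldn11, 127 CPM against 98 CPM, and replicate 8 the lowest Ugt8a, 55.7 CPM against 59.7 CPM. In the hippocampus of that group, replicate 11, which was low in hippocampal markers, had the lowest Mbp, 2060 CPM against 2380 CPM, and the lowest Mobp, 509 CPM against 646 CPM.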

How the results depend on the processing

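In the cerebellum, Mog, Cldn11 and Ugt8a were called lower with age in 23 of 23 alternatives, Cnp in 18 and Mal in 16. The count of called genes ran from 3 to 6 with 1 library left out and was 3 with the Mbp count as library size. In the cortex it was 0 and became 3 with the other oligodendrocyte genes as covariate, and, for all older groups, 3 with Mbp and 7 with the other oligodendrocyte genes as covariate. In the hippocampus those last 2 fits gave 1 and 2 instead of 0. The difference of the age change between hippocampus and cerebellum went from 0 to 1 for the older groups with the Mbp covariate. Fitting the compared groups alone gave 3 instead of 0 for PBS at 22 against 18 months and 2 instead of 0 for PBS against naive mice, both in the hippocampus. Leaving out 1 library in turn kept every count at 0 in the other comparisons within a region; it was not run for differences between regions or experiments.

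Between hippocampus and cortex the count of 2 became 4 with limma-voom, 5 without libraries under 2500000 counts and 0 in naive 2-month mice alone, where Cldn11 and Opalin reversed to -0.051 and -0.067. Between cerebellum and hippocampus the count of 7 became 4 in those mice (Mag, Cnp, Ugt8a and Opalin), of which only Cnp and Opalin were among the 7: Mbp, Mobp and Mog reversed to 0.17, 0.019 and 0.27, and Cldn11 and Mal were no longer called. Between cerebellum and cortex, Mobp and Cldn11 were no longer called in those mice. In each case the cause was not tested, beyond the smaller number of samples. With the mouse as a replicate block, the region counts were 6, 2 and 7 and those of the age change between regions 0, as without the pairing. Among the alternative values of the called counts and of the levels by region, 438 stayed close to the reported ones, the counts within 1.5 times and the levels within 1 SD, and 15 did not. A count that stayed at 0 was taken as close, also in comparisons where edgeR called no gene of any kind. The tally is therefore not a measure of how firm the calls are. Depth limits Opalin most, with 7 to 11 counts in the 3 cerebellar libraries under 2500000 counts.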
